A study of Homo sapiens with 6 samples.

Results

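The core autophagy genes and cargo receptors were followed in Panc1 cells, a long-established human pancreatic carcinoma line, exposed to BRQ or to the solvent DMSO. The genes were chosen by name, as the ATG genes with a number, the WIPI, GABARAP, MAP1LC3 and ULK1 to ULK3 genes, and 14 further genes of the pathway. The rule found 44 of the 16197 genes of the table, and 42 of these had a mean of at least 1 FPKM and were tested. There were 6 libraries, 3 with DMSO and 3 with BRQ, and no other allele or agent is named. By its title, the series is about inhibition of DHODH, a mitochondrial enzyme of pyrimidine synthesis, and brequinar, an inhibitor of that enzyme, is taken to be what BRQ stands for. The labels used here give neither its dose nor how long cells were exposed. Whether each library had a culture of its own is not stated, so the p-values speak only of the spread among 6 libraries, which may be technical.

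Autophagy delivers parts of the cytoplasm to the lysosome inside a double membrane, the autophagosome. A kinase complex around ULK1 starts the process, a lipid kinase complex with BECN1 marks the membrane, and ATG9, ATG2 and WIPI proteins bring and spread lipid. Conjugation enzymes then attach ubiquitin-like proteins of the ATG8 family (LC3 and GABARAP) to the membrane, and receptors such as SQSTM1 tie cargo to them. Pancreatic ductal carcinomas are known for high basal autophagy. RNA was measured here, and neither protein nor autophagic flux was.

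Levels are given in FPKM, fragments scaled to gene length and library total, as deposited. Each fold change is BRQ over DMSO, was computed on log2(FPKM + 1), is given with its standard error and understates the change of low genes. A gene was called when limma's adjusted p, taken over all 10689 genes tested, was under 0.05. Relative depth, read from the steps between low values, was 0.958 to 0.986 in the DMSO libraries and 1.02 to 1.03 in the BRQ libraries. Pearson correlations across genes were 0.995 to 0.997 within a group and 0.968 to 0.974 between groups. The epithelial markers KRT8, KRT18, KRT19, EPCAM and MUC1 were expressed in every library, with CDH1 at 4.03 to 6.10 FPKM and KRT7 at 1.13 to 1.39 FPKM. The 7 listed epithelial markers summed to 2401 to 2526 FPKM in DMSO and 2273 to 2410 FPKM in BRQ. Within that sum, KRT19 stood lower in BRQ (690 to 732 FPKM in DMSO, 558 to 571 FPKM in BRQ), as did KRT18 (800 to 860 and 724 to 787 FPKM). EPCAM stood higher in BRQ (81.7 to 88.1 and 99.5 to 111 FPKM), as did MUC1 (33.4 to 37.2 and 58.8 to 66.6 FPKM). KRT7, KRT8 and CDH1 overlapped between groups. Some other marker lists changed in sum with treatment, each through 1 gene. VIM made up nearly all of the mesenchymal sum (3 genes), which was 1852 to 1903 FPKM in DMSO and 866 to 905 FPKM in BRQ, with CDH2 at most 0.0193 FPKM. CD68, also a lysosomal protein, made up nearly all of the leukocyte sum (4 genes), at 105 to 111 and 155 to 164 FPKM, with PTPRC at most 0.153 FPKM. LUM made up nearly all of the fibroblast sum (3 genes), at 52.0 to 54.8 and 77.4 to 82.9 FPKM, with DCN at most 0.0712 FPKM. The part of these shifts in the results was not tested. The line is generally described as lacking CDKN2A, which stood at 44.2 to 49.4 FPKM in DMSO and 31.0 to 34.9 FPKM in BRQ. Also listed for the identity of the line, CDKN2B stood at 14.6 to 15.7 and 18.9 to 20.1 FPKM, and MTAP at 9.18 to 10.2 and 9.34 to 9.70 FPKM. The name of the line is from the library titles, and its identity was not tested. Haemoglobin transcripts set BRQ libraries 1 and 2 apart, with HBB at 64.2 and 32.8 FPKM against at most 0.739 FPKM in the other libraries. The part of these transcripts in the results was not tested, and values without both libraries are given where a call ended.

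Of the 42 tested genes, 20 rose in BRQ, 7 fell and 15 were not called. This is 47.6% higher and 16.7% lower, beside 36.9% higher and 25.2% lower over all genes tested. The counts by role that follow, each of few genes, stand beside the same shares over all genes. The median log2 fold change was 0.11 for the autophagy genes and 0.06 for all genes. The BRQ and DMSO values did not overlap in 31 of the 42 genes (73.8%), beside 67.2% of all genes tested. Changes were mostly modest. Mean FPKM in BRQ was 0.599 to 2.29 times that in DMSO, and the genes with the highest ratios were ATG16L2, MAP1LC3B2 and ULK3. The split of 20 higher to 7 lower became 17 to 10 under median-of-ratios, TPM or trimmed-mean scaling. It became 22 to 3 or 27 to 3 under the 2 removals of a trend with gene span that are described last. Over all genes tested, 3946 higher and 2692 lower became 3392 and 3217, 3382 and 3160, or 3347 and 3276 under these 3 scalings. Under the 2 removals they became 3797 and 2523 or 4546 and 1955, over the 10658 genes with a position.

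**Figure D1:**
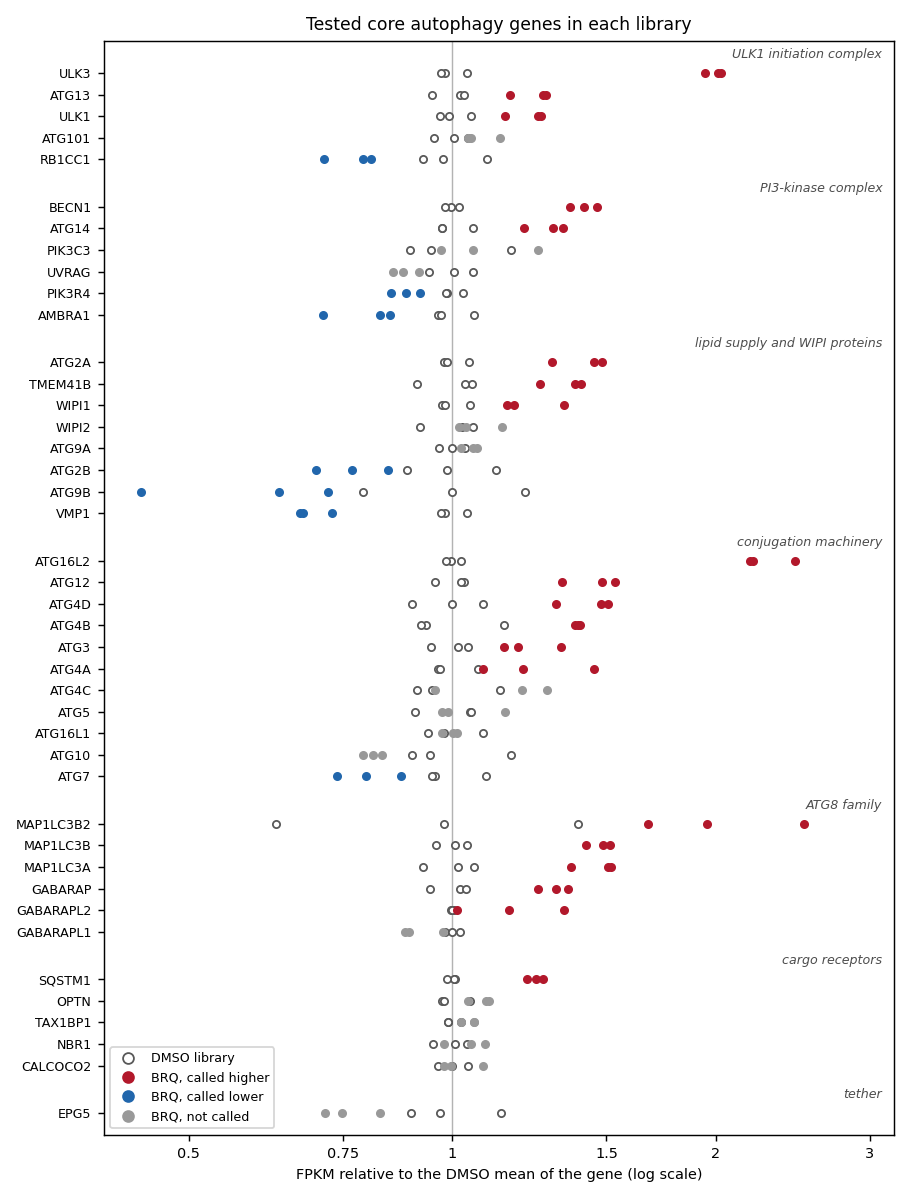
FPKM of each tested gene in each library, divided by the gene's DMSO mean, on a log axis, with genes grouped by role. Open points are DMSO libraries and filled points BRQ libraries, coloured by call; ULK3 and ATG16L2 lie far to the right, while 4 of the 5 cargo receptors stay near 1.

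Among the genes of the ULK1 initiation complex, grouped here with the related kinases ULK2 and ULK3, 3 of 5 tested rose and 1 fell. In the complex itself ULK1 and ATG13 rose, RB1CC1 fell and ATG101 was not called. The strongest rise of the 5 was that of ULK3, a kinase related to ULK1 that is also known from Hedgehog signalling. ULK3 lies at chr15:74836116-74843346 (GRCh38, minus strand). ULK3 read 10.1, 10.0 and 10.7 FPKM in DMSO libraries 1, 2 and 3 and 20.9, 20.7 and 20.0 FPKM in BRQ libraries 1, 2 and 3. The groups lay far apart, and the log2 fold change was 0.94 ± 0.05 (limma adjusted p = 2.27e-07). ULK1, the kinase that starts autophagosome formation, read 12.8, 11.8 and 12.1 FPKM in DMSO and 14.0, 15.3 and 15.4 FPKM in BRQ. All BRQ values were above all DMSO values, by a smaller step than for ULK3 (log2 fold change 0.26 ± 0.06, adjusted p = 0.00242). The order of the kinases turned. ULK1 made up 54.1 ± 1.39% of the summed FPKM of ULK1, ULK2 and ULK3 in DMSO and 41.9 ± 1.73% in BRQ (n = 3 each; groups apart; two-sided exact permutation p = 0.1, the smallest that 3 against 3 libraries allow). ULK2 was hardly expressed, at 0.105 to 0.139 FPKM in DMSO and 0.0346 to 0.147 FPKM in BRQ, and was not tested.

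ATG13, the adaptor that links ULK1 to its partners, rose from 18.9 ± 0.854 to 23.4 ± 1.21 FPKM (adjusted p = 8.99e-04). ATG101, which stabilises ATG13, had overlapping groups, 47.3 ± 2.13 and 50.9 ± 2.39 FPKM in DMSO and BRQ (log2 fold change 0.10 ± 0.05, adjusted p = 0.097). RB1CC1, the large scaffold FIP200, went the other way and fell. It read 6.71, 7.07 and 7.93 FPKM in DMSO and 5.17, 5.84 and 5.73 FPKM in BRQ, without overlap (log2 fold change -0.32 ± 0.08, adjusted p = 0.00357). Its call ended when the trend with gene span was removed (log2 fold changes -0.15 and -0.09; adjusted p 0.00148 to 0.275 over all alternatives).

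The lipid kinase complex was split, with 2 of 6 genes higher and 2 lower. BECN1, the Beclin 1 scaffold, read 21.7, 21.2 and 20.9 FPKM in DMSO and 31.2, 29.0 and 30.1 FPKM in BRQ. The 2 groups were clearly separate, and limma's adjusted p was 8.89e-06 (log2 fold change 0.48 ± 0.05). PSME3, which shares 300 exon bases with BECN1 on the opposite strand, was called higher too, from 50.5 to 60.0 FPKM. ATG14, the subunit that directs the complex to autophagosome formation, rose from 3.97 ± 0.192 to 5.09 ± 0.270 FPKM (adjusted p = 0.00414). UVRAG, its counterpart in the endosomal form of the complex, stood at 5.83 ± 0.337 and 5.15 ± 0.180 FPKM and was not called (adjusted p = 0.0777), but was called lower under the 3 scalings and higher with the span trend removed (adjusted p 0.00669 to 0.227 over all alternatives). The catalytic subunit PIK3C3 stood at 1.98 ± 0.285 and 2.16 ± 0.284 FPKM with overlapping groups. PIK3R4, its regulatory partner, was called lower, from 7.76 ± 0.201 to 6.87 ± 0.255 FPKM (adjusted p = 0.0452). That call was at the threshold and ended without any single one of the 6 libraries (adjusted p 0.052 to 0.136), without BRQ libraries 1 and 2 together (adjusted p = 0.328) and with the span trend removed (0.0116 to 0.53 over all alternatives). AMBRA1, a Beclin 1 partner that also directs cyclin D to degradation, read 13.4, 13.5 and 14.7 FPKM in DMSO and 9.89, 11.8 and 11.5 FPKM in BRQ. It fell without overlap (log2 fold change -0.30 ± 0.07, adjusted p = 0.00355), and its log2 fold change was -0.02 and 0.04 with the span trend removed (adjusted p 0.00132 to 0.741 over all alternatives). Summed over the complex, FPKM went from 54.69 ± 0.648 to 60.45 ± 0.508 (groups apart, exact permutation p = 0.1).

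Among the genes of lipid supply and the WIPI proteins, 3 of 8 rose and 3 fell. VMP1, a lipid scramblase of the endoplasmic reticulum needed for autophagosome formation, had the largest decrease of the tested autophagy genes on the log2(FPKM + 1) scale. By the ratio of means the low gene ATG9B was further down, at 0.599 against 0.692 for VMP1, as its log2 fold change was with a pseudocount of 0.1, under TPM scaling, without DMSO library 1 and with the span trend removed. VMP1 lies at chr17:59707192-59842255 (GRCh38, plus strand) and was second in level among the 44 genes in DMSO, after SQSTM1. VMP1 read 107, 101 and 100 FPKM in DMSO and 75.1, 68.9 and 69.5 FPKM in BRQ, far apart (log2 fold change -0.53 ± 0.05, adjusted p = 4.05e-06). It stayed lower under every alternative, between -0.59 and -0.27. The microRNA gene MIR21 lies in 72 exon bases of VMP1 on the same strand, and PTRH2, called higher from 21.8 to 27.5 FPKM, shares 162 on the other.

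TMEM41B, the related scramblase, rose from 5.97 ± 0.462 to 8.05 ± 0.460 FPKM (adjusted p = 9.91e-04). ATG2A, a lipid transfer protein, read 13.4, 13.5 and 14.3 FPKM in DMSO and 17.8, 20.3 and 19.9 FPKM in BRQ, a rise without overlap (log2 fold change 0.46 ± 0.06, adjusted p = 6.46e-05). Its paralogue ATG2B was called the other way, from 3.02 ± 0.359 to 2.32 ± 0.219 FPKM (adjusted p = 0.0229). The ATG2B call ended without DMSO library 2 or 3 or BRQ library 1 or 2 (log2 fold changes -0.33 to -0.20, adjusted p 0.0151 to 0.0931 over the 6 omissions) without BRQ libraries 1 and 2 together (adjusted p = 0.287), with no filter on low values, and with the span trend removed (log2 fold changes -0.18 and -0.12; adjusted p 0.011 to 0.287 over all alternatives). ATG9A, the membrane protein of the seed vesicles, read 17.9, 17.3 and 18.5 FPKM in DMSO and 18.9, 19.1 and 18.3 FPKM in BRQ. Its groups overlapped and it was not called (log2 fold change 0.06 ± 0.05, adjusted p = 0.281). The paralogue ATG9B was called lower from 1.72 ± 0.359 to 1.03 ± 0.245 FPKM (adjusted p = 0.011), and its call ended without BRQ libraries 1 and 2 together (adjusted p = 0.0838; 0.00365 to 0.0838 over all alternatives). ATG9B shares 786 exon bases with the opposite-strand gene NOS3, at 21.2 FPKM in DMSO, and whether reads were assigned by strand is not given in the sources used here.

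WIPI1, which binds the lipid made by the kinase complex, was called higher from 3.35 ± 0.139 to 4.10 ± 0.340 FPKM (adjusted p = 0.0236). The WIPI1 call ended under the 3 scalings (adjusted p 0.0588 to 0.0644) and without DMSO library 2 or 3 or BRQ library 1 (adjusted p 0.0626 to 0.078). It also ended without BRQ libraries 1 and 2 together and under 1 of the 2 span removals (adjusted p = 0.186 and 0.051; 0.0152 to 0.186 over all alternatives). WIPI2, which recruits ATG16L1, stood at 15.9 ± 1.13 and 16.9 ± 1.04 FPKM with overlapping groups. The summed FPKM of the 8 genes was lower in BRQ, at 164.4 ± 4.17 and 141.6 ± 3.86. Without VMP1 it was higher, at 61.58 ± 2.61 and 70.48 ± 0.651. Either difference separated the groups, with an exact permutation p of 0.1. The sum without VMP1 was not planned, and VMP1 was left out with its fall known. Its p-value is thus no test of a rise, and that sum is a description only.

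Of the 11 genes of the conjugation machinery, 6 rose, 1 fell and 4 were not called. ATG16L2, a paralogue of ATG16L1 at chr11:72814308-72843674 (GRCh38, plus strand), had the largest fold change of the 42 genes in the fit over all 6 libraries. ATG16L2 read 2.99, 3.07 and 2.95 FPKM in DMSO and 6.62, 7.39 and 6.57 FPKM in BRQ. The gap between the groups was many times their spread (log2 fold change 0.97 ± 0.07, adjusted p = 1.10e-06). FCHSD2, which shares 680 exon bases with ATG16L2 on the opposite strand, fell from 18.0 to 9.80 FPKM. ATG16L1, the member that anchors the ATG12 conjugate to the membrane, had means of 33.4 ± 2.49 and 33.3 ± 0.680 FPKM in DMSO and BRQ, with overlapping values (log2 fold change -0.0042 ± 0.06, adjusted p = 0.952). It was thus much higher than ATG16L2 in either group.

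The ubiquitin-like ATG12 read 13.5, 13.4 and 12.5 FPKM in DMSO and 19.4, 17.5 and 20.1 FPKM in BRQ. It rose without overlap (log2 fold change 0.50 ± 0.06, adjusted p = 4.87e-05). Its opposite-strand neighbour AP3S1 shares 378 exon bases and was called higher, from 7.41 to 9.01 FPKM. Its partner ATG5 read 4.89, 4.90 and 4.23 FPKM in DMSO and 5.37, 4.54 and 4.62 FPKM in BRQ. The ATG5 groups overlapped and it was not called (log2 fold change 0.04 ± 0.08, adjusted p = 0.676), and its sign turned under the 3 scalings. Of the enzymes, ATG3, which transfers ATG8 proteins to lipid, rose from 18.5 ± 0.957 to 22.6 ± 1.79 FPKM (adjusted p = 0.00347). That call ended without BRQ libraries 1 and 2 together (adjusted p = 0.0691; 0.00132 to 0.0691 over all alternatives). ATG7, which activates ATG12 and the ATG8 proteins, was called lower from 6.18 ± 0.505 to 4.96 ± 0.422 FPKM (adjusted p = 0.0124). The ATG7 call ended without DMSO library 1 (adjusted p = 0.0563) or BRQ library 3 (adjusted p = 0.0512). With the span trend removed the sign of ATG7 turned (log2 fold changes 0.09 and 0.15, not called; adjusted p 0.00457 to 0.369 over all alternatives). ATG10, the transfer enzyme for ATG12, was low, at 1.20 ± 0.174 and 0.974 ± 0.0242 FPKM, and was not called (adjusted p = 0.158). It shares 374 exon bases with the opposite-strand gene RPS23, which stood at 235 FPKM in DMSO and 224 FPKM in BRQ. ATG7 shares 1596 with VGLL4, also on the opposite strand, at 12.2 and 13.3 FPKM. What such neighbours add to the values was not tested. In all, 23 of the 44 genes share exon bases with another gene, and not all of these are named here.

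Of the ATG4 proteases, which trim ATG8 proteins and release them from lipid, 3 of 4 were called higher. ATG4B, the most abundant, rose from 23.9 ± 3.07 to 33.2 ± 0.230 FPKM (adjusted p = 2.68e-04). ATG4D rose from 10.9 ± 1.03 to 15.6 ± 1.11 FPKM (adjusted p = 2.36e-04), and KRI1, which shares 341 exon bases with it on the opposite strand, was called higher from 16.8 to 21.7 FPKM. ATG4A was called from 4.11 ± 0.250 to 5.12 ± 0.769 FPKM (adjusted p = 0.0348), and that call ended without DMSO library 1 or 3 or BRQ library 1 or 3 (log2 fold change 0.16 without BRQ library 1, adjusted p = 0.122) under the 3 scalings, without BRQ libraries 1 and 2 together (adjusted p = 0.116) and with no filter (adjusted p 0.00927 to 0.122 over all alternatives). ATG4C stood at 1.34 ± 0.163 and 1.53 ± 0.230 FPKM. The make-up of the protease family overlapped between groups, with ATG4B at 59.3 ± 2.23% of the summed FPKM in DMSO and 60.0 ± 1.99% in BRQ (exact permutation p = 0.7).

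In the ATG8 family 5 of 6 tested genes were called higher and none lower, beside 36.9% higher and 25.2% lower over all genes tested. MAP1LC3B, the LC3 most used as a marker of autophagosomes, lies at chr16:87383995-87404779 (GRCh38, plus strand). It read 63.1, 65.1 and 60.0 FPKM in DMSO and 94.9, 89.1 and 93.2 FPKM in BRQ. FBXO31, with 150 exon bases shared on the opposite strand, was called lower from 9.04 to 6.41 FPKM. The lowest BRQ value of MAP1LC3B was well above the highest DMSO value (log2 fold change 0.55 ± 0.05, adjusted p = 2.52e-06). GABARAP, the most abundant of the family, read 99.4, 101 and 91.9 FPKM in DMSO and 132, 122 and 128 FPKM in BRQ, also without overlap (log2 fold change 0.38 ± 0.05, adjusted p = 5.09e-05). MAP1LC3A rose from 5.73 ± 0.388 to 8.39 ± 0.494 FPKM (adjusted p = 1.64e-04). GABARAPL2 was called (adjusted p = 0.0379), but its BRQ values of 51.4, 44.4 and 38.8 FPKM were spread widely above DMSO values of 38.2, 38.5 and 38.3 FPKM. Its log2 fold change of 0.21 ± 0.08 became 0.11 without BRQ library 1 (adjusted p = 0.112), and the call also ended without BRQ library 2 or any single DMSO library, without BRQ libraries 1 and 2 together (0.02, adjusted p = 0.815), with no filter, under the 3 scalings and with the span trend removed (adjusted p 0.0021 to 0.815 over all alternatives). GABARAPL1 stood apart from the rest of the family. It read 20.0, 19.2 and 19.6 FPKM in DMSO and 17.3, 19.1 and 17.5 FPKM in BRQ, lower without overlap but not called (log2 fold change -0.12 ± 0.05, adjusted p = 0.0725). It was called lower under the 3 scalings, with the span trend removed and without BRQ library 2 (adjusted p 0.00426 to 0.18 over all alternatives). MAP1LC3C was listed at 0 in 4 libraries and at 0.110 and 0.0183 FPKM in BRQ libraries 2 and 3.

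MAP1LC3B2, a near copy of MAP1LC3B on chromosome 12, read 4.50, 2.03 and 3.16 FPKM in DMSO and 8.14, 5.41 and 6.31 FPKM in BRQ. It was called higher (log2 fold change 0.88 ± 0.19, adjusted p = 0.00203), with the widest spread of the family. Its coding sequence differs from that of MAP1LC3B at 2 of 378 bases, C30G and A338G, counted from 1 at the A of the start codon with the MAP1LC3B base first. Of the words of 50 bases in the MAP1LC3B2 transcript, 43.4% were also in the MAP1LC3B transcript (GENCODE 29), so the split of reads between the 2 genes is uncertain. The coding stretches around the 2 differences are shown because they are where a read could tell the genes apart within the coding sequence. The differing base is in capitals, first at position 30 and then at position 338.
MAP1LC3B: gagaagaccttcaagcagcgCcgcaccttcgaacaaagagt
MAP1LC3B2: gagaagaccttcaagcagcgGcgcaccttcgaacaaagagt
MAP1LC3B: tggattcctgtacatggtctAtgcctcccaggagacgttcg
MAP1LC3B2: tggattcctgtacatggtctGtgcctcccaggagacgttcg

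Summed over the family, FPKM went from 227.1 ± 7.09 in DMSO to 297.8 ± 13.1 in BRQ, 1.31 times higher (groups apart, exact permutation p = 0.1). The LC3 genes together made up 31.6 ± 0.0823% of that sum in DMSO and 36.1 ± 0.637% in BRQ, with groups apart (exact permutation p = 0.1). MAP1LC3B took 27.6 ± 0.412% and 31.1 ± 0.839%. GABARAP took overlapping shares, 42.9 ± 0.828% and 42.8 ± 0.884% (exact permutation p = 1), and GABARAPL1 went from 8.64 ± 0.318% to 6.05 ± 0.543%.

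**Figure D2:**
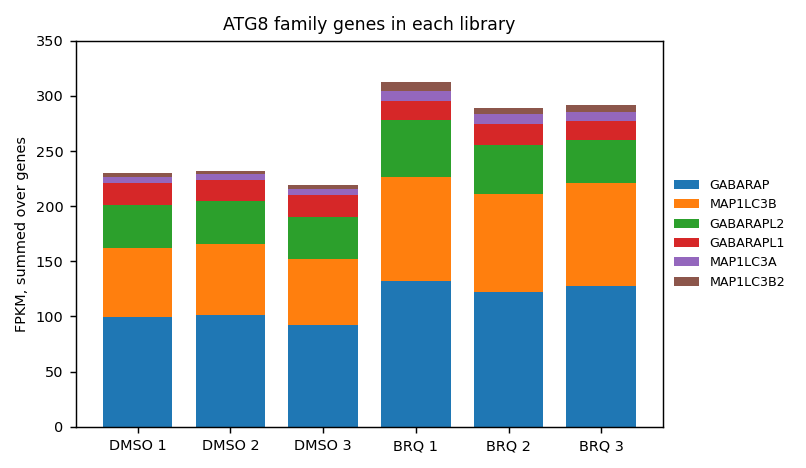
FPKM of the 6 ATG8 family genes that were tested, stacked for each of the 6 libraries. The 3 BRQ stacks reach 289.0 to 312.8 FPKM and the 3 DMSO stacks 218.9 to 231.8 FPKM, and the added height lies mainly in GABARAP and MAP1LC3B.

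Among the cargo receptors 1 of 5 rose and none fell. SQSTM1 (p62), which carries ubiquitin-tagged cargo and is itself degraded by autophagy, lies at chr5:179806398-179838078 (GRCh38, plus strand) and was by far the most abundant of the 44 genes. SQSTM1 read 567, 566 and 555 FPKM in DMSO and 714, 702 and 686 FPKM in BRQ. The groups lay far apart relative to their spread (log2 fold change 0.32 ± 0.04, adjusted p = 2.83e-05). MRNIP shares 1582 exon bases with SQSTM1 on the opposite strand and rose too, from 9.35 to 18.1 FPKM, a level far below that of SQSTM1. MGAT4B, which shares 105 exon bases with it on the opposite strand, was also called higher, from 144 to 160 FPKM. The other receptors had overlapping groups and were not called. OPTN, a receptor of mitochondria and bacteria, stood at 65.1 ± 2.68 and 70.2 ± 2.10 FPKM (adjusted p = 0.0542). It passed with the replicate block (adjusted p = 0.0334), without DMSO library 1 or BRQ library 2 and under 1 of the 2 span removals (adjusted p 0.0206 to 0.382 over all alternatives). The last 3 receptors are known to bind ubiquitin-tagged cargo or bacteria. TAX1BP1 stood at 48.6 ± 0.966 and 50.9 ± 1.04 FPKM, NBR1 at 28.3 ± 1.26 and 29.4 ± 1.57 FPKM, and CALCOCO2 (NDP52) at 26.1 ± 1.03 and 26.6 ± 1.53 FPKM. TAX1BP1 was called higher with the span trend removed (log2 fold changes 0.21 and 0.27; adjusted p 5.45e-04 to 0.98 over all alternatives). The share of SQSTM1 in the summed FPKM of the 5 receptors went from 77.0 ± 0.453% to 79.8 ± 0.301% (groups apart, exact permutation p = 0.1). EPG5, a tether that guides autophagosomes to lysosomes, was low at 1.55 ± 0.192 and 1.18 ± 0.0829 FPKM and was not called, just short of the threshold (adjusted p = 0.0507). It was called lower under the 3 scalings, with robust variance and without DMSO library 1 (adjusted p 0.027 to 0.937 over all alternatives).

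The changes went with the length of the gene on the genome. None of the 13 autophagy genes with a span of at least 70.2 kb was called higher, and 5 were called lower. Of all 2665 tested genes of such span, 395 were called higher and 1198 lower. All 9 autophagy genes of 12.6 to 30.3 kb were called higher, where 1260 of 2664 genes were higher and 439 lower. Of the 12 with spans of 30.4 to 70.1 kb, 7 were higher and 1 lower, beside 965 and 573 of 2664 genes. Of the 8 shortest, 4 were higher and 1 lower, a share like that of all genes there, with 1316 higher and 477 lower of 2665. Across the 42 genes, Pearson's r between log10 span and log2 fold change was -0.544 and Spearman's rho -0.616. Over 10658 tested genes with a position, the values were -0.316 and -0.33. These are descriptions over genes measured in the same 6 libraries. The part of gene span in single calls was not tested.

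**Figure D3:**
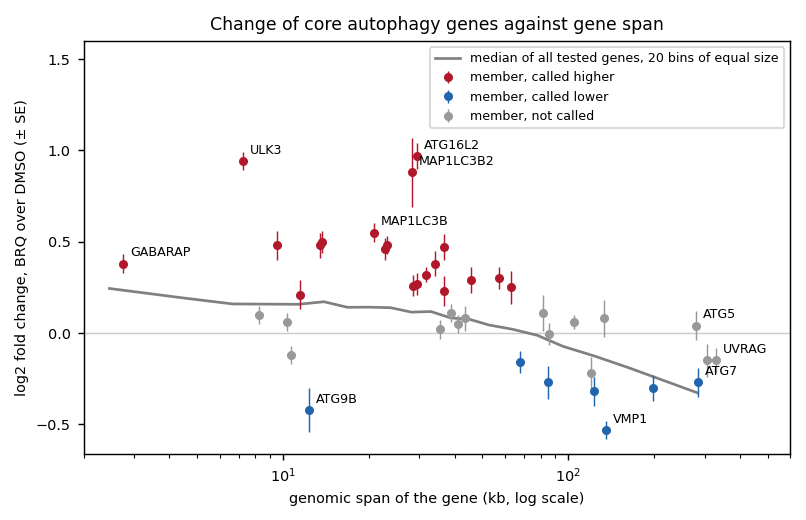
Log2 fold change with its standard error against genomic span (log axis) for the 42 tested autophagy genes, coloured by call, with the median of all tested genes in 20 bins as a line. The line falls from above to below 0 as span grows, ULK3, ATG16L2 and MAP1LC3B2 lie far above it, and ATG9B and VMP1 lie below it.

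When each library's trend with span was removed, the genes called lower went from 7 to 3 and the long genes moved up. Because fold changes fell with span over all genes tested, the removal itself moves long genes up. The calls it added for long genes are therefore no separate evidence of a rise. ATG5, with a span of 280 kb, was then called higher (log2 fold changes 0.40 and 0.46 under the 2 centrings; adjusted p 0.00211 to 0.95 over all alternatives). UVRAG, with 328 kb, turned from -0.15 to 0.24 and 0.30 and was called higher. PIK3C3 was also called higher, at 0.28 and 0.34. The calls of AMBRA1, ATG2B, ATG7, PIK3R4 and RB1CC1 as lower ended, those of VMP1 and ATG9B held, and GABARAPL1 was added. Over all alternatives that tested them, 17 of the 27 calls held in direction and threshold, 16 higher and 1 lower. These were ULK1, ULK3, ATG13, BECN1, ATG14, ATG2A, TMEM41B, ATG12, ATG16L2, ATG4B, ATG4D, GABARAP, MAP1LC3A, MAP1LC3B, MAP1LC3B2, SQSTM1 and, as the lower one, VMP1. The share of calls that held in this way over all genes tested was not computed, so the split is not a trait of the autophagy genes.

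**Figure D4:**
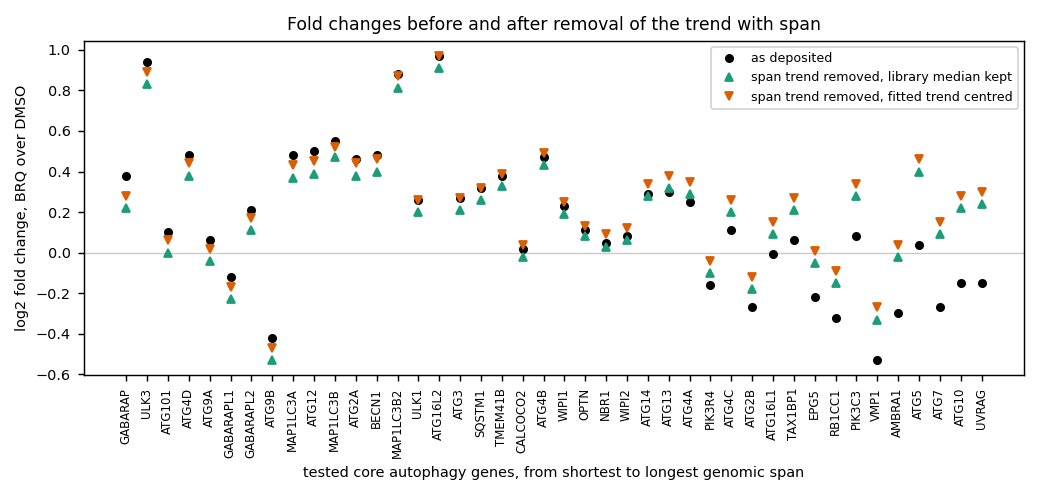
Log2 fold change of each tested autophagy gene as deposited (circles) and after removal of the trend with genomic span under 2 centrings (triangles), with genes in order of span. Among the longest genes, the triangles of ATG5, ATG7, ATG10 and UVRAG lie above 0 and their circles lie near or below it.

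Genes around the core machinery were taken from 7 lists, whose counts stand beside 36.9% higher and 25.2% lower over all genes tested, so that more genes higher than lower is not particular to a list. Calls in these lists are from the fit over all 6 libraries as deposited. Whether they held under the alternatives, the removal of the span trend among them, was not examined. Partners of the lipid kinase and of ATG9 rose in 6 of 10 tested cases and fell in 2. EI24, a membrane protein of the endoplasmic reticulum, rose from 47.3 ± 1.39 to 67.7 ± 2.40 FPKM (adjusted p = 3.72e-06). WDFY3 fell from 5.38 ± 0.546 to 3.93 ± 0.456 FPKM and TECPR1 from 14.2 ± 0.517 to 11.3 ± 0.480 FPKM. Genes that fuse autophagosomes with lysosomes rose in 9 of 13 cases and none fell. SNAP29, a SNARE of this step, rose from 8.78 ± 0.384 to 13.4 ± 0.400 FPKM (adjusted p = 1.21e-05), and VPS33A, a subunit of the tethering complex HOPS, from 10.4 ± 0.320 to 14.8 ± 0.695 FPKM.

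The list of mTORC1, TSC and AMPK genes, which control ULK1 by phosphorylation, went the other way, with 1 of 17 higher and 8 lower (median log2 fold change -0.18). RPTOR, the subunit that brings substrates to mTORC1, fell from 15.2 ± 1.05 to 9.28 ± 0.614 FPKM (adjusted p = 1.23e-05). DDIT4, a stress-induced inhibitor of mTORC1, fell from 133 ± 2.63 to 87.9 ± 3.51 FPKM (adjusted p = 9.12e-07). RHEB, the GTPase that activates mTORC1, rose from 37.2 ± 1.84 to 45.7 ± 3.42 FPKM. The list thus holds activators and inhibitors that moved together, and activators that moved apart. Of 10 transcription factors known to act on autophagy genes, 3 rose and 4 fell. ATF4, the factor of the integrated stress response, fell from 50.6 ± 1.23 to 30.9 ± 1.06 FPKM (adjusted p = 5.08e-07), and ZKSCAN3, described as a repressor of autophagy genes, from 1.27 ± 0.314 to 0.731 ± 0.164 FPKM. DDIT3 (CHOP), a partner and target of ATF4, rose from 77.2 ± 1.71 to 93.9 ± 2.12 FPKM. TFEB, the main activator of lysosome genes, fell from 3.45 ± 0.0678 to 2.56 ± 0.393 FPKM (adjusted p = 0.00869) and was named after its values were seen.

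The last 3 lists hold receptors and other factors of selective autophagy. ER-phagy receptors rose in 5 of 8 cases and fell in 1, with TEX264 up from 20.5 ± 0.495 to 26.1 ± 0.787 FPKM, SEC62 up from 14.0 ± 0.151 to 17.3 ± 0.587 FPKM and RTN3 down from 32.5 ± 0.625 to 28.7 ± 1.49 FPKM. Among mitophagy genes, 5 of 8 were higher and 1 was lower. BNIP3L (NIX), a mitophagy receptor, rose from 19.2 ± 1.39 to 28.6 ± 1.47 FPKM, the kinase PINK1 from 26.6 ± 1.14 to 37.9 ± 1.18 FPKM, and PHB2 of the inner membrane fell from 148 ± 6.93 to 111 ± 7.76 FPKM. Of 7 other factors 4 rose and 1 fell. NCOA4, the receptor that delivers ferritin to lysosomes, rose from 35.4 ± 0.419 to 53.0 ± 1.48 FPKM (adjusted p = 1.19e-06), and WDR81 from 9.72 ± 0.697 to 11.8 ± 0.988 FPKM. NUFIP1, a receptor for ribosomes, fell from 4.29 ± 0.517 to 2.61 ± 0.446 FPKM. In bulk libraries a change in the share of cells that express a gene and a change in RNA per cell cannot be told apart.

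Promoters of 39 of the 44 genes were in the RefSeq table (GRCh38.p14, 250 bases before to 50 after the start), and only the first listed for each gene was used. They were searched on both strands for TCACGTGA, the core of the element bound by TFEB, for the E-box CACGTG inside it, for TGATGCAA of ATF4 with CHOP, and for GTAAACA of FOXO factors. TCACGTGA was in 1 of 39 promoters, that of ATG3 (2.56%), beside 2.14% of 8802 promoters of genes tested. CACGTG was in 3 of 39 (7.69%), beside 10.5%. GTAAACA was in 1 of 39, that of CALCOCO2 (2.56%, beside 2.32%), and TGATGCAA was in none (0.477% of promoters of genes tested). The share of each motif was thus near that over the genes tested, and the letters say nothing of binding. Other starts of a gene were not searched, and the stretch used can lie inside the gene, as for ATG5 at chr6:106316217-106316516. The 3 promoters with an E-box belong to ATG3, ATG14 and ULK3. The stretches of 60 bases around the first E-box of each are shown with that E-box in capitals. The ATG3 stretch also holds, in small letters, a further E-box 5 bases after the start, which is the one inside TCACGTGA. They lie on the minus strand at chr3:112561948-112562007, chr14:55411819-55411878 and chr15:74843296-74843355.
ATG3: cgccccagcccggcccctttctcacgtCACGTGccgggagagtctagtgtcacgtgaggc
ATG14: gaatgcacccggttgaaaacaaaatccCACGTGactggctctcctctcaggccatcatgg
ULK3: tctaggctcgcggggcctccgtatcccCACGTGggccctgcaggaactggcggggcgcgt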

How the data were processed

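RNA was sequenced from 6 libraries, 3 per group, grouped and numbered by their titles. The authors deposited FPKM values per gene without counts. The submitters' processing notes name fastp, HTSeq and hg38; aligner, annotation, strand and gene lengths are not given in any source used here. Every column of per-library values was used. Depth is unknown; relative depth was read from the commonest ratio between low values of a gene in different libraries.

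Genes whose mean reached 1 FPKM were fitted with limma 3.58.1 (R 4.3.3) on log2(FPKM + 1), with a mean-variance trend, treatment as the only term, two-sided tests and Benjamini-Hochberg adjustment over all genes tested. Sums and shares of FPKM were compared by exact permutation tests (scipy 1.17.1). Spans, positions and exon overlaps are from GENCODE 29 (GRCh38), and promoters from RefSeq. The script was tested on simulated data. Every gene that the naming rule found is accounted for; library values are given for the 2 most changed called genes of each role and for ULK1, BECN1, ATG9A, ATG5, MAP1LC3B, GABARAP and SQSTM1, and up to 2 called genes per direction are named from each further list. Some genes of these lists that the rule would name are not reported here. The values of GABARAPL1 and GABARAPL2 per library were added after they were seen. The genes, lists and alternatives were chosen with earlier results of these data known. A planned comparison of ATG8 protein sequences was not run.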

Additional observations from a re-analysis of the deposited data

How the results depend on the processing

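Of 42 tested autophagy genes, 18 kept direction and side of the threshold under every alternative that tested them. The same share over all genes tested was not computed. The genes called lower numbered 7, and 4 without BRQ libraries 1 and 2 together, a fit whose lone BRQ library is assumed to vary like the DMSO libraries, and 3 under either removal of the span trend; fewer samples and the removed trend set these fits apart. Leaving out 1 library at a time gave 17 to 20 genes higher, 5 to 6 lower and 32 to 34 with separate groups, a difference in LC3 share of 4.15 to 4.72 points, and 3610 to 3793 higher and 2414 to 2611 lower over all genes. Signs turned for genes that were not called and, with the span trend removed, for ATG7 and AMBRA1, both called lower as deposited; the cause was not tested. Under scaling by median of ratios, by TPM and by a trimmed mean, which moved the median of all genes from 0.06 to between 0.00 and 0.01, the log2 fold change was -0.01 in each for ATG5, -0.03, -0.03 and -0.04 for CALCOCO2 and -0.002, -0.0016 and -0.01 for NBR1. Leaving out single libraries gave -0.05 to 0.05 for ATG16L1, -0.02 to 0.08 for ATG5 and -0.02 to 0.05 for CALCOCO2, and without BRQ libraries 1 and 2 together -0.01 for ATG5 and -0.03 for CALCOCO2. With the span trend removed and the library median kept it was 0.22 for ATG10, -0.0036 for ATG101, 0.09 for ATG16L1, 0.09 for ATG7, -0.04 for ATG9A, -0.02 for CALCOCO2 and 0.24 for UVRAG. With the fitted trend centred it was 0.04 for AMBRA1, 0.28 for ATG10, 0.15 for ATG16L1, 0.15 for ATG7, 0.01 for EPG5 and 0.30 for UVRAG, and ATG4C, ATG10, ATG16L1 and UVRAG were called higher; that form moved the median of all genes from 0.06 to 0.11. With the replicate block 21 genes were higher and 6 lower, OPTN being gained and PIK3R4 lost. Same-numbered libraries correlated at 0.144, 0.00804 and 0.0584 in their deviations, and other-numbered ones at -0.137 to 0.105. These values do not settle whether the numbers pair the libraries, and the main fit did not pair them. In the main fit only genes above the filter were tested. ULK2 and MAP1LC3C lay below it, and whether depth limits their values is not known.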
